A study of Homo sapiens with 12 samples.

Results

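The comparison described here sets 4 arrays made 72 h after plasmid transfection against 4 made 48 h after it, 8 of the 12 arrays of the series, over 12323 genes. All cells were BE(2)-C, an established human neuroblastoma line, grown in DMEM with 10% fetal bovine serum and 1% non-essential amino acids, and all were transfected with 2 µg of plasmid in effectene, a lipid reagent, so the empty vector cells carry a plasmid and a transfection too. The 72 h arrays came from 2 samples transfected with pTRex-GRHL1, which carries the grainyhead-like transcription factor GRHL1, and 2 transfected with the empty vector pTRex-Dest30. The 48 h arrays came from 2 samples with pTRex-GRHL1 and 2 with pTRex-Dest30. Samples were chosen by the time that the titles of the normalized table give, and by no measured value. No untransfected cells were analysed here. The spread behind each standard error and p-value was estimated from replicates on all 12 arrays, those at 24 h included. Nothing in the labels tells if replicates came from separate cultures. The p-values then cover only the spread among these 12 arrays, which may be technical. The time step combines hours since transfection, hours in culture and any harvest, RNA preparation or hybridisation done by time. These cannot be told apart in this design.

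BE(2)-C cells belong to the neuroblastomas, tumours of the sympathetic nervous system, and neuroblastoma lines can hold noradrenergic traits with catecholamine enzymes beside mesenchymal traits such as vimentin. Between the later days of a transient transfection, a culture usually becomes denser, its medium ages and the plasmid is diluted with each division. Genes of sterol synthesis, amino acid supply, hypoxia and the cell cycle are known to respond to such conditions in many cell lines, and lists of these genes are described below.

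The normalized intensity table holds linear fluorescence intensities of an Illumina BeadChip, given here in intensity units. Each gene is represented by its brightest probe. Between 17950 and 19427 of 47323 probes were detected per array, the level below which 95% of undetected probes lay was 128.4 units, called the detection limit here, and the number of arrays limits the precision. Log2 differences are 72 h minus 48 h, averaged over the 2 plasmids, after a normexp background correction with an offset of 16 units. For dim genes they are larger than the printed intensities alone give, and their size depends on the correction. Across the alternatives described at the end, the dim gene HAMP ran from 0.33 to 0.71. Each is given with limma's moderated standard error (SE) and a p-value adjusted by the Benjamini-Hochberg method over all 12323 genes, and a gene is said to have risen or fallen only at an adjusted p under 0.05. The deposited scanner table names 7 of the 12 columns differently, all 7 among the 8 arrays used here. Under its names 6 of the 8 would change plasmid and 2 would change time, replicate 1 of the 72 h empty vector group and replicate 1 of the 48 h GRHL1 group. The GRHL1 probe read 4669 to 6225 units on the 4 arrays that the normalized table names GRHL1, and 92.3 to 115 units on the 4 it names empty vector. The scanner names would place 3 of the 4 bright arrays in the empty vector groups and give GRHL1 a 72 h minus 48 h difference of 3.76, against 0.08 under the normalized names. These GRHL1 values bear directly on the plasmid names, but the 7 conflicts form a shift by 1 place in column order. From 48 h GRHL1 replicate 1 to 72 h empty vector replicate 2, each scanner column matched the normalized array of the next name. The last column, named 72 h GRHL1 replicate 2, matched 48 h GRHL1 replicate 1. Both conflicts of time thus belong to the same shift as the plasmid conflicts. Values without the 2 arrays of conflicting time, and under the scanner names, are still given beside the leading genes and in the closing paragraph.

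The 8 arrays separated first by plasmid and then by time. On the first principal component, which held 27.4% of the variance over the 12323 genes, the GRHL1 arrays lay between 7.24 and 12.60 and the empty vector arrays between -11.37 and -8.45. On the second, which held 15.4%, the 72 h arrays lay at 13.73 and 6.44 with GRHL1 and at 4.81 and 5.04 with empty vector, and the 48 h arrays lay at -8.32 and -8.95 with GRHL1 and at -6.77 and -6.00 with empty vector. All 4 arrays of each time were therefore on their own side of 0, the 2 arrays of conflicting time included.

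**Figure D1:**
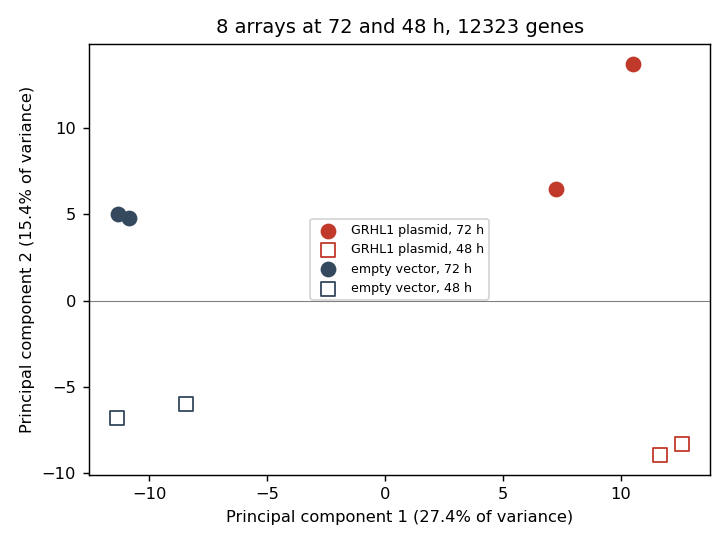
First and second principal components of the 8 arrays (percent of variance on each axis), with filled circles for 72 h and open squares for 48 h, in red for the GRHL1 plasmid and in dark blue for the empty vector. The plasmids part along the horizontal axis, and the 72 h arrays lie above 0 and the 48 h arrays below 0 on the vertical axis.

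Between 72 and 48 h the tested genes differed little. Only 3 of 12323 genes passed the threshold (0.0243%), and all 3 were higher at 72 h: the small nucleolar RNA SNORD13, the neuronal surface protein gene CA10 and the tetraspanin gene TSPAN8. No gene was lower at an adjusted p under 0.05 by limma, while 1022 (8.29%) had an unadjusted p under 0.05, of which 594 (4.82% of all) were higher and 428 (3.47%) lower. The difference was above 0 in 52.1% of genes, with a median of 0.006, and 0 genes reached an absolute log2 difference of 1. All 4 arrays at 72 h lay above all 4 at 48 h in 303 genes (2.46%) and below them in 269 (2.18%). For scale, the same test called 64 genes (0.519%) at 48 h against 24 h, 28 of them higher (0.227%), and 107 (0.868%) at 72 h against 24 h, 62 of them higher (0.503%), comparisons that share arrays with this one.

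SNORD13, the U13 small nucleolar RNA, which guides the maturation of 18S ribosomal RNA, differed most clearly. It read 865 and 866 units at 72 h in GRHL1 cells, and 931 and 894 in empty vector cells, against 583 and 552 units at 48 h in GRHL1 cells, and 556 and 557 in empty vector cells. The lowest 72 h array thus stood well above the highest 48 h array, in both plasmids alike. The log2 difference was 0.73 ± 0.06 (SE, n = 4 arrays at each time, limma adjusted p = 0.00744), at 0.68 with GRHL1 and 0.79 with empty vector. Over 24, 48 and 72 h the mean over both plasmids was 814 ± 58.6, 562 ± 14.3 and 889 ± 31.2 units (SD, n = 4 each), so the 48 h level was the low point. Without the 2 arrays of conflicting time the difference was 0.74 and did not pass (limma adjusted p = 0.312), and under the scanner names it was 0.35 (adjusted p = 0.883). In RNA of whole cultures, a change in the share of cells that make an RNA and a change in RNA per cell cannot be told apart, which holds for every gene below.

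CA10, which encodes a carbonic anhydrase-like protein without enzyme activity that binds neurexins at synapses, was a dim gene near the detection limit. It read 174 and 175 units at 72 h in GRHL1 cells, and 184 and 187 in empty vector cells, against 121 and 131 units at 48 h in GRHL1 cells, and 152 and 158 in empty vector cells. The groups did not overlap, and 1 of the 48 h arrays, with the GRHL1 plasmid, lay under the limit. CA10 rose by 0.66 ± 0.07 (SE, n = 4 each, limma adjusted p = 0.0316), at 0.88 with GRHL1 and 0.44 with empty vector. The difference between those 2 values was 0.45 and did not pass the test (adjusted p = 1). Its 24 h mean of 178 ± 2.58 units was close to the 72 h mean of 180 ± 6.4, with 140 ± 17.1 at 48 h (SD, n = 4 each). The CA10 difference was 0.60 without the 2 arrays of conflicting time (limma adjusted p = 0.312) and 0.09 under the scanner names (adjusted p = 0.968). In a fit of the 8 arrays alone on time plus plasmid, CA10 did not pass (adjusted p = 0.144).

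TSPAN8, which encodes a cell surface tetraspanin best known from carcinomas of the digestive tract, was the brightest of the 3. It read 1931 and 1770 units at 72 h in GRHL1 cells, and 1754 and 1261 in empty vector cells, against 1009 and 1089 units at 48 h in GRHL1 cells, and 830 and 813 in empty vector cells. Again no 72 h array fell into the 48 h range, though the 2 empty vector arrays at 72 h lay far apart. TSPAN8 rose by 0.89 ± 0.11 (SE, n = 4 each, limma adjusted p = 0.0465). Unlike SNORD13 and CA10 its mean was higher at each later time, with 721 ± 76.6, 935 ± 136 and 1679 ± 290 units at 24, 48 and 72 h (SD, n = 4 each). The TSPAN8 difference was 0.73 without the 2 arrays of conflicting time (limma adjusted p = 0.312) and 0.46 under the scanner names (adjusted p = 0.879). The 8-array fit on time plus plasmid did not call TSPAN8 (adjusted p = 0.0751) but kept SNORD13 (adjusted p = 0.0223), and a fit of 4 group means to the 8 arrays called none of the 3 (limma adjusted p = 0.0707 for SNORD13 and 0.144 for CA10 and TSPAN8).

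The promoters of the called genes are shown for TSPAN8 and CA10, beside that of SLC3A2, a gene of the amino acid response described below, so that the letters behind the motif counts can be read. Each is the 300 bases from 250 before to 50 after the annotated start, from RefSeq on build GRCh38.p14, written in the direction of the gene. The lone capital marks the start base and a run of capitals marks the match of the motif named for that gene. TSPAN8 lies at chr12:71157950-71158249 on the minus strand, CA10 at chr17:52159752-52160051 on the minus strand and SLC3A2 at chr11:62881449-62881748 on the plus strand.
TSPAN8: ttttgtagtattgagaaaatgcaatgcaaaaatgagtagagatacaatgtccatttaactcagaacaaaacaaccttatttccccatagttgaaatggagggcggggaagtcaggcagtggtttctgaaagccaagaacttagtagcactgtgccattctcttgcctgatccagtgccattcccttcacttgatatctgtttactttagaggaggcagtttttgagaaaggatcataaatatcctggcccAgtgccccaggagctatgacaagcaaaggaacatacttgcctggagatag
CA10: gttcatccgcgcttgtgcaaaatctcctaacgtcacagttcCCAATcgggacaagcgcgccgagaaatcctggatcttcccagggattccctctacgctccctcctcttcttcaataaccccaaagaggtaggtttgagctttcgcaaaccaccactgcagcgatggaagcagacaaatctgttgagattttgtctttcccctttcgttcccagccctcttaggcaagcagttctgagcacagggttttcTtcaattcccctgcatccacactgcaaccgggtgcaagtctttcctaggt
SLC3A2: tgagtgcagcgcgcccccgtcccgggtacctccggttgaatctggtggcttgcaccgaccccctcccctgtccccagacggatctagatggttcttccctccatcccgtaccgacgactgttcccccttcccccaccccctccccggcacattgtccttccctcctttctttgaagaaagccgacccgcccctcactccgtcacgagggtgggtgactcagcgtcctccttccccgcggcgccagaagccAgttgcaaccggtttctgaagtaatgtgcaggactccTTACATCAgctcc
The TSPAN8 window held none of the 6 motifs searched, each on both strands. The CA10 window held a CCAAT box (CCAAT on either strand) beginning 209 bases before the start, a motif present in 34.6% of all 35116 RefSeq windows. The SLC3A2 window held the amino acid response element (TGATGNAA on either strand), read here as its reverse complement 37 bases after the start, and that motif is present in 3.62% of windows. It also held TTTGAA, a motif of cell cycle promoters. These windows were among 2, 3 and 3 listed for the 3 genes, and a match is a match of letters only. For CA10 and SLC3A2 the first window that held the named motif was printed, so those matches were fixed by the choice. The TSPAN8 window was the first listed, so the genes cannot be compared by their matches.

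**Figure D2:**
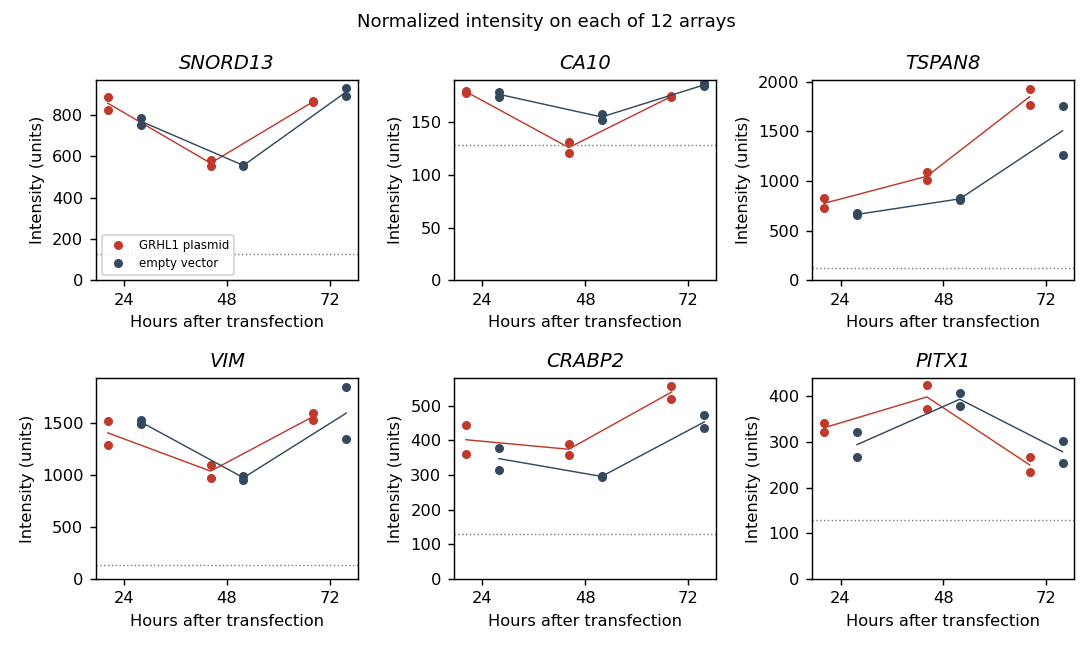
Normalized intensity (units, linear axis from 0) of 6 genes on each of the 12 arrays at 24, 48 and 72 h, with red points for the GRHL1 plasmid and dark blue points for the empty vector. Lines join the means of 2 arrays and the dotted line is the detection limit of 128.4 units. SNORD13, CA10 and VIM have their low point at 48 h, TSPAN8 has its highest level at 72 h, and PITX1 has its high point at 48 h.

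The genes next in order of p did not pass the threshold, and were chosen for printing after their values were seen. Where 4 values are given for a time, the 2 GRHL1 arrays come before the 2 empty vector arrays. HAMP, the gene of the iron hormone hepcidin, read 161, 140, 165 and 167 units at 72 h, against 124, 130, 127 and 123 at 48 h (0.63 ± 0.08, limma adjusted p = 0.0752). Only 1 of its 4 arrays at 48 h lay above the detection limit. CRYAA, a lens crystallin and small heat shock protein gene, lay below the limit on all 4 arrays at 48 h and read 134, 131, 140 and 150 units at 72 h, at least 1.08-fold higher by intensity (adjusted p = 0.0765).

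Brighter genes followed with larger separations in units. CRABP2, which carries retinoic acid to its nuclear receptors, read 520, 558, 434 and 472 units at 72 h, against 358, 390, 298 and 293 at 48 h (0.69 ± 0.11, limma adjusted p = 0.15). VIM, the intermediate filament vimentin of mesenchymal cells, read 1589, 1528, 1841 and 1339 units at 72 h, against 971, 1096, 989 and 951 at 48 h (0.68 ± 0.11, adjusted p = 0.15). In both genes every 72 h array lay above the 48 h range, as in 2.46% of all genes. Their choice by p from the same arrays favours this. A further VIM probe averaged 758 units at 72 h and 411 at 48 h, a difference of 0.99 ± 0.13 (adjusted p = 0.0703 over 22986 probes). The VIM mean at 24 h was 1454 ± 112 units (SD, n = 4), so VIM too had its low point at 48 h. Without the 2 arrays of conflicting time CRABP2 differed by 0.69 and VIM by 0.52, and under the scanner names by 0.52 and 0.19.

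LINGO4, a leucine-rich repeat membrane protein gene, had the largest difference beside CRH. It read 227, 198, 295 and 213 units at 72 h, against 152, 143, 154 and 171 at 48 h (0.90 ± 0.14, limma adjusted p = 0.15). CRH, corticotropin-releasing hormone, read 592 and 506 units at 72 h in GRHL1 cells, and 287 and 212 in empty vector cells, against 228 and 254 units at 48 h in GRHL1 cells, and 199 and 221 in empty vector cells (0.90 ± 0.18, adjusted p = 0.196). Most of the CRH difference lay with the GRHL1 plasmid, at 1.47 against 0.32 with empty vector, but that difference of differences did not pass the test (adjusted p = 1).

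The genes with lower values at 72 h were fewer and none passed the threshold. PITX1, a homeobox transcription factor of hindlimb and pituitary development, read 233, 266, 254 and 303 units at 72 h, against 372, 425, 408 and 379 at 48 h (-0.75 ± 0.12, limma adjusted p = 0.15). DKK1, a secreted inhibitor of Wnt signalling, read 1080, 1213, 1109 and 1113 units at 72 h, against 1918, 1791, 1456 and 1525 at 48 h (-0.59 ± 0.10, adjusted p = 0.196). ITGB5, the beta 5 subunit of integrins that bind vitronectin, read 2673, 2974, 2885 and 2726 units at 72 h, against 3736, 3610, 3573 and 3398 at 48 h (-0.35 ± 0.07, adjusted p = 0.196). All 3 had groups that did not overlap, where 2.18% of all genes lay wholly below. They were chosen by p from the same arrays, which favours this. A further 2 probes of ITGB5 differed by -0.45 ± 0.10 and -0.30 ± 0.10. PALM, which encodes the membrane protein paralemmin, differed by -0.44 ± 0.08 with means of 505 units at 72 h and 661 at 48 h (adjusted p = 0.196). Without the 2 arrays of conflicting time PITX1 differed by -0.72 and DKK1 by -0.56, and under the scanner names by -0.40 and -0.18.

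Which genes passed depended on how dim values and the spread were treated. Without background subtraction 36 genes passed and with a variance trend and robust estimates 42 did, with 33 in common, 28 of them higher and 5 lower at 72 h. These alternatives called the most genes and were chosen after the counts were seen. The next highest count was 10, with an offset of 50. Both used the same arrays, so the genes in common are not separate evidence. Those 33 hold SNORD13, TSPAN8 and CA10, VIM, CRABP2, LINGO4 and CRH, and of the lower genes PITX1, DKK1, ITGB5, PALM and FAM131A (-0.32 ± 0.06). The 33 also hold secreted and matrix proteins: IGFBP5 and MDK, described below, the neuropeptide gene ADCYAP1 (0.52 ± 0.09, 322 units at 72 h against 246 at 48 h), the microfibril protein gene MFAP4 (0.55 ± 0.11, 250 against 190) and the complement gene C7 (0.46 ± 0.11, 626 against 492). C7 was higher with GRHL1 at both times, at 736 and 809 units at 72 h against 686 and 630 at 48 h, while its empty vector arrays read 488 and 471 at 72 h against 320 and 332 at 48 h. These means were over 4 arrays at each time, and the genes of this paragraph other than SNORD13, TSPAN8 and CA10 missed the threshold in the main test, with adjusted p between 0.15 and 0.29.

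Other genes of the 33 encode surface, neuronal and metabolic proteins. The cadherin gene CDH10 averaged 274 ± 34.4 units at 72 h and 195 ± 8.74 at 48 h (SD, n = 4 each), a difference of 0.69 ± 0.12. NSG1, a protein of neuronal endosomes, averaged 3449 ± 462 units at 72 h and 2524 ± 183 at 48 h, a difference of 0.45 ± 0.11. The adhesion receptor genes ADGRL1, or latrophilin 1, and ADGRG2 differed by 0.39 ± 0.08 and 0.64 ± 0.14, and KCTD12, an auxiliary subunit of GABA-B receptors, differed by 0.65 ± 0.14. SLC31A1, the copper importer, averaged 1559 ± 317 units at 72 h and 1142 ± 169 at 48 h (0.46 ± 0.10). Its 4 arrays at 72 h spread widely, with 1843 and 1785 units in GRHL1 cells, and 1442 and 1164 in empty vector cells, and the last lay inside the 48 h range. ASS1, the enzyme that makes argininosuccinate in arginine synthesis, was among the most even of them, with 2707, 2750, 2941 and 2676 units at 72 h against 2070, 2087, 2033 and 2096 at 48 h (0.43 ± 0.08, limma adjusted p = 0.196), and 2 further ASS1 probes differed by 0.43 ± 0.10 and 0.27 ± 0.18. The remaining protein-coding genes of the 33 were EPDR1 (0.51 ± 0.09), PPP2R2B, a regulatory subunit of protein phosphatase 2A (0.45 ± 0.09), ANTXR2, a receptor of anthrax toxin (0.61 ± 0.12), TSKU (0.32 ± 0.06), TAGLN2 (0.52 ± 0.13) and CREG1 (0.37 ± 0.07), beside the small noncoding RNAs RNU4-2, RNU6-1 and SNORD68. Further probes of NSG1 and PPP2R2B differed by -0.10 ± 0.18 and -0.06 ± 0.08, with the opposite sign to the brightest probe, while another PPP2R2B probe differed by 0.36 ± 0.16, with the same sign.

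Most of these differences were smaller under the scanner names. Those names exchange an array of each time for one of the other, and the 33 genes were chosen under the normalized names. Smaller values follow from that exchange and do not test the differences. Of the 33 genes 28 were smaller by over 1.5 times, and 31 had the same sign, with ADCYAP1 and IGFBP5 at 0.00. The scanner-name differences were 0.01 for TAGLN2, 0.02 for SNORD68, 0.06 for ADGRL1, 0.08 for NSG1 and CREG1, 0.09 for MFAP4, and 0.10 for EPDR1 and PPP2R2B. They were 0.12 for RNU6-1, 0.15 for KCTD12 and TSKU, 0.17 for ASS1, 0.18 for LINGO4, 0.22 for ADGRG2 and 0.23 for RNU4-2. The lower genes FAM131A, ITGB5 and PALM differed by -0.06, -0.18 and -0.24. The values were 0.31 or higher for MDK (0.31), CDH10 (0.41), SLC31A1 (0.42), ANTXR2 (0.60), CRH (0.67) and C7 (0.74), of which C7 was larger than under the normalized names. The scanner names also place most arrays with a bright GRHL1 probe at 72 h, and C7 was higher with GRHL1 at both times.

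The time step was also read within each plasmid, from arrays that the other plasmid does not share. In GRHL1 cells 0 genes passed (smallest limma adjusted p = 0.101), with 888 at an unadjusted p under 0.05 (7.21%). In empty vector cells 0 genes passed (smallest limma adjusted p = 0.0848), with 651 at an unadjusted p under 0.05 (5.28%). Of the 651 genes chosen in empty vector cells 421 (64.7%) had the same sign in GRHL1 cells, and of the 888 chosen in GRHL1 cells 586 (66%) had the same sign in empty vector cells, against 54.8% of all genes. Pearson's r between the 2 differences was 0.16 across the 12323 genes, which are not independent replicates, and both differences share limma's estimate of the spread.

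The test of the difference between plasmids found 0 genes (smallest limma adjusted p = 0.537), with 523 at an unadjusted p under 0.05 (4.24%). The smallest p belonged to CDKN2B, which encodes the cyclin-dependent kinase inhibitor p15. It read 131 and 135 units at 72 h in GRHL1 cells, and 123 and 126 in empty vector cells, against 110 and 102 units at 48 h in GRHL1 cells, and 140 and 141 in empty vector cells. It was thus higher at 72 h with GRHL1 and lower with empty vector, by 0.78 and -0.34, but all 8 values lay close to the detection limit of 128.4 units. The transfected gene itself read 5968 and 5459 units at 72 h in GRHL1 cells, against 6225 and 4669 at 48 h. In empty vector cells GRHL1 lay below the limit on all 4 arrays, and over both plasmids its difference was 0.08 ± 0.24 (adjusted p = 0.968).

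**Figure D3:**
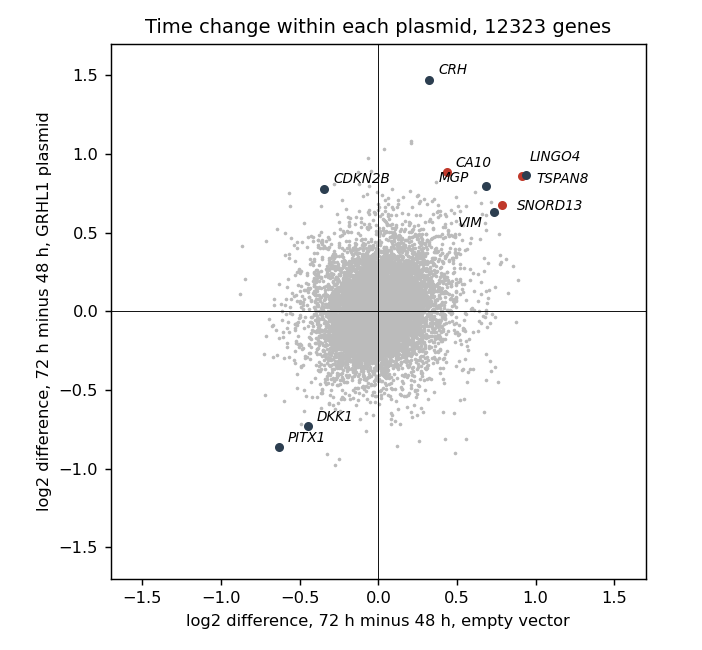
Log2 difference of 72 h minus 48 h in GRHL1 cells (vertical axis) against that in empty vector cells (horizontal axis), 1 grey point for each of the 12323 genes, with the 3 called genes in red and 7 others in dark blue. Red points and VIM, MGP and LINGO4 lie at the upper right, DKK1 and PITX1 at the lower left, CRH is higher mainly with GRHL1 and CDKN2B has opposite signs.

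MYCN and HDAC3, which the series title names beside GRHL1, showed no change that passed the test. MYCN read 27005, 24455, 26358 and 25188 units at 72 h, against 23908, 24638, 25740 and 24205 at 48 h (0.06 ± 0.07, limma adjusted p = 0.86). This probe stood at 89.1% to 100% of the brightest value of its array, which limits what a difference can show, and a further MYCN probe differed by 0.20 ± 0.07 (adjusted p = 0.589 over 22986 probes). HDAC3, a histone deacetylase of corepressor complexes, averaged 1065 ± 56.2 units at 72 h and 1068 ± 63.9 at 48 h (SD, n = 4 each), a difference of 0.00 ± 0.08 (adjusted p = 0.997).

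Small noncoding RNAs, the class to which SNORD13 belongs, were then counted as a class, chosen after its values were seen and given without a test. These RNAs guide the modification and processing of ribosomal and spliceosomal RNA or are parts of the spliceosome, and many have near-identical copies that a probe may not tell apart. Of 328 on the array 185 were tested, and 143 of these had a higher level at 72 h and 42 a lower one, with a median difference of 0.11, against 52.1% of all genes and a median of 0.01. Of the 185, 32 were higher and 3 lower at an unadjusted p under 0.05, against 4.82% and 3.47% of all genes. In 15 all 4 arrays at 72 h lay above all 4 at 48 h, and in 0 below, against 2.46% and 2.18% of all genes. The median was 0.14 with the GRHL1 plasmid and 0.09 with the empty vector. RNA preparation or hybridisation done by time cannot be told apart from a change in the level of these RNAs.

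The families of the class lay on the same side. Among C/D box RNAs (SNORD) 60 of 77 were above 0, among H/ACA box RNAs (SNORA) 56 of 72, among Cajal body RNAs (SCARNA) 12 of 16, among spliceosomal RNAs (RNU) 6 of 9 and among Y RNAs 3 of 4. RNU4-2, the U4 spliceosomal RNA, read 660, 641, 640 and 560 units at 72 h, against 410, 461, 445 and 410 at 48 h (0.61 ± 0.11, limma adjusted p = 0.196). RNU6-1, a U6 spliceosomal RNA, averaged 2579 ± 218 units at 72 h and 1999 ± 101 at 48 h (SD, n = 4 each), a difference of 0.38 ± 0.08. SNORD68 differed by 0.43 ± 0.08, SNORA4 by 0.51 ± 0.10 and RNY3 by 0.38 ± 0.08, all without overlap between the times. Lack of overlap was favoured by their choice by p from the same arrays. RNU4-2 read 731 ± 116, 432 ± 25.5 and 625 ± 44.7 units at 24, 48 and 72 h, and RNU6-1 read 2885 ± 185, 1999 ± 101 and 2579 ± 218 (SD, n = 4 each). Like SNORD13, CA10 and VIM, both were picked by p for 72 h against 48 h. Among genes higher at 72 h, that choice favours low 48 h values, so a low point at 48 h is not a separate finding. SNORD101 went the other way, at -0.42 ± 0.10, with 115 units at 72 h and 131 at 48 h, near the limit. Under the scanner table's own sample names the median of the class was 0.00, against 0.11 under those of the normalized table.

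Gene lists of pathways, gene families and cell type markers were counted next, 35 lists with 750 tested entries. No list held a gene at an adjusted p under 0.05, against 0.0243% of all genes, so each list is described by its counts, beside 52.1% of all genes above 0 and a median of 0.01. Their counts at an unadjusted p under 0.05 stand beside 4.82% of all genes higher and 3.47% lower. The lists with the highest shares above 0 were MYC and MYCN targets with ribosome biogenesis genes, cholesterol and fatty acid synthesis, and targets of ATF4.

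**Figure D4:**
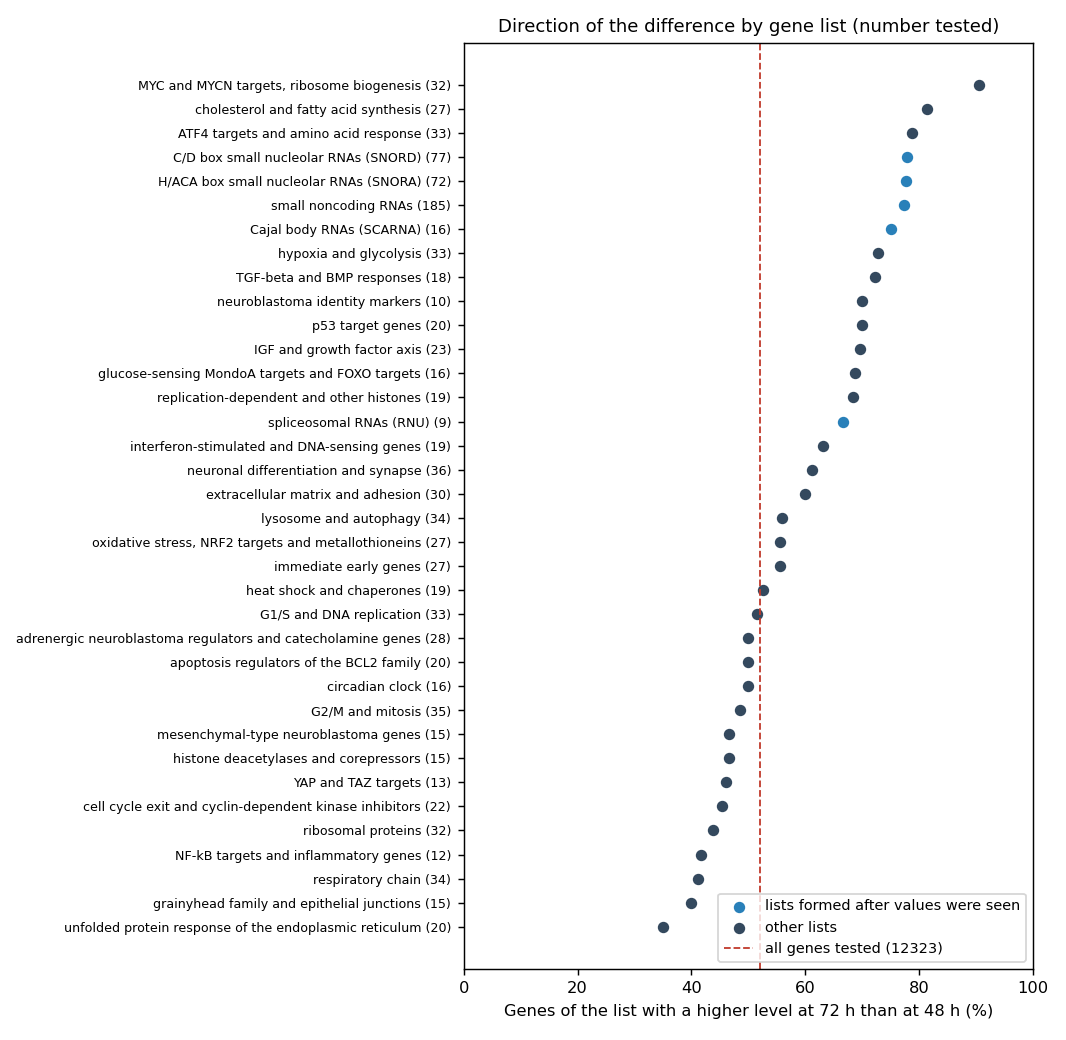
Share of tested genes with a higher level at 72 h than at 48 h (percent) in each gene list with at least 9 genes tested, with the number tested in parentheses. Light blue points are lists of small noncoding RNAs formed after values were seen, dark points are the other lists, and the dashed line is the share of all 12323 genes (52.1%). MYC targets, cholesterol synthesis and ATF4 targets lie at the top and the unfolded protein response at the bottom.

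Of 27 genes of cholesterol and fatty acid synthesis, a pathway that SREBP transcription factors switch on when cell sterols are low, 22 had a higher level at 72 h and 5 a lower one, with a median difference of 0.13. Of these 7 were higher and 0 lower at an unadjusted p under 0.05, against 4.82% and 3.47% of all genes. HMGCS1, which makes the substrate of HMG-CoA reductase, read 3468 and 4376 units at 72 h in GRHL1 cells, and 3593 and 4595 in empty vector cells, against 2964 and 3502 units at 48 h in GRHL1 cells, and 2877 and 2728 in empty vector cells. The 2 times overlapped through a GRHL1 array of each (0.41 ± 0.11, limma adjusted p = 0.34). SC5D, which acts late in cholesterol synthesis, did not overlap, with 1449, 1439, 1256 and 1400 units at 72 h against 1148, 1217, 1097 and 1189 at 48 h (0.27 ± 0.08, adjusted p = 0.438). MVD, IDI1 and INSIG1, 2 enzymes of the mevalonate route and the sterol-sensing anchor protein, differed by 0.30 ± 0.09, 0.33 ± 0.12 and 0.33 ± 0.13. HMGCS1 averaged 5531 ± 339, 3018 ± 337 and 4008 ± 561 units at 24, 48 and 72 h (SD, n = 4 each), so the 72 h level stood between the others. The sterol element core (TCACCCC on either strand) was found in 2 of 33 promoter windows of the list (6.06%), against 5.48% of all windows.

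Of 33 targets of ATF4, the transcription factor of the amino acid and integrated stress response, 26 were higher and 7 lower at 72 h, with a median of 0.07, and 6 were higher and 0 lower at an unadjusted p under 0.05 (4.82% and 3.47% of all genes). DDIT4, an inhibitor of the growth kinase complex mTORC1, read 681, 679, 725 and 741 units at 72 h, against 564, 557, 597 and 603 at 48 h (0.32 ± 0.07, limma adjusted p = 0.249). Its groups did not overlap in either plasmid. PSPH and PHGDH, enzymes of serine synthesis, differed by 0.28 ± 0.09 and 0.19 ± 0.07. SLC3A2, the heavy chain of amino acid exchangers whose promoter is printed above, averaged 1432 ± 100 units at 72 h and 1264 ± 98.5 at 48 h (0.19 ± 0.07), and a dimmer SLC3A2 probe averaged 304 units at 72 h and 233 at 48 h (0.56 ± 0.15). NUPR1, a stress-induced chromatin protein gene, differed by 0.41 ± 0.10 at 145 ± 1.35 units at 72 h and 126 ± 7 at 48 h (SD, n = 4 each), near the limit. The amino acid response element was found in 10 of 48 promoter windows of the list (20.8%), against 3.62% of all windows, among them those of ASNS, ATF3 and CHAC1. The motif counts of all lists cover each list as given, whatever was measured, and do not bear on the difference between the times.

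The unfolded protein response of the endoplasmic reticulum, a stress response close to that of ATF4, had the lowest share above 0. Of its 20 genes 7 were higher and 13 lower at 72 h, with a median of -0.01 and a range from -0.20 to 0.14. HYOU1, an endoplasmic reticulum chaperone, averaged 496 ± 32.9 units at 72 h and 550 ± 35.5 at 48 h (SD, n = 4 each), and SYVN1, a ubiquitin ligase of protein quality control, averaged 393 ± 38.1 and 441 ± 32.8 units at the same times. Neither passed the test (-0.17 ± 0.08 and -0.20 ± 0.08), and a further probe of each differed by 0.06 ± 0.10 and 0.01 ± 0.11.

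Of 32 genes listed as MYC and MYCN targets, many of them of ribosome biogenesis, 29 were higher and 3 lower at 72 h, with a median of 0.08 over both plasmids, 0.10 with GRHL1 and 0.02 with empty vector. In both plasmids separately 16 of the 32 were above 0, beside 3569 of all 12323 genes. The differences were small, from -0.16 to 0.21, and 3 were higher at an unadjusted p under 0.05, against 4.82% of all genes. Under the scanner names the median was -0.01. The largest of those named, NAP1L1, a histone chaperone, read 3817, 4149, 4122 and 3759 units at 72 h, against 3292, 3402, 3374 and 3627 at 48 h (0.21 ± 0.07, limma adjusted p = 0.479). The E-box CACGTG was found in 14 of 36 promoter windows of the list (38.9%), against 7.26% of all windows. Ribosomal proteins themselves were higher in 14 and lower in 18 of 32, with a median of -0.01, and genes of the respiratory chain were higher in 14 and lower in 20 of 34.

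Of 33 genes of hypoxia and glycolysis 24 were higher and 9 lower at 72 h, with a median of 0.06, and 6 were higher and 0 lower at an unadjusted p under 0.05, where all genes had 4.82% and 3.47%. PGK1, a glycolytic kinase, read 6824, 7152, 6550 and 6236 units at 72 h, against 5739, 5855, 5322 and 5911 at 48 h (0.23 ± 0.08, limma adjusted p = 0.524), though a dimmer PGK1 probe differed by -0.11 ± 0.09. P4HA1, which hydroxylates proline in collagen, averaged 537 ± 18.9 units at 72 h and 477 ± 14 at 48 h (SD, n = 4 each), without overlap. TPI1, a further glycolytic enzyme, differed by 0.19 ± 0.08 at its brightest probe and by -0.15 ± 0.09 at another probe. All 3 probes of PKM, a pyruvate kinase, were above 0, at 0.17 ± 0.07, 0.34 ± 0.12 and 0.24 ± 0.08. The hypoxia element ACGTG, which also lies inside every CACGTG, was found in 27 of 54 promoter windows of the list (50%), against 21.4% of all windows.

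Genes of cell division showed no common direction. Of 35 genes of G2/M and mitosis 17 were higher and 18 lower at 72 h, with a median of 0.00, and of 33 genes of G1/S and DNA replication 17 were higher and 16 lower, with a median of 0.01. BUB1, a kinase of the spindle checkpoint, read 446, 451, 446 and 419 units at 72 h, against 497, 509, 494 and 517 at 48 h (-0.23 ± 0.06, limma adjusted p = 0.384). PLK1, a mitotic kinase, differed by -0.24 ± 0.09, while E2F1, a transcription factor of S phase entry, differed by 0.35 ± 0.09, with 235 ± 10.5 units at 72 h and 200 ± 22 at 48 h (SD, n = 4 each). The CCAAT box was found in 30 of 36 promoter windows of the mitotic list (83.3%), against 34.6% of all windows, and TTTGAA, the cell cycle homology region, in 24 of 36 (66.7%), against 15.2%. Of 19 histone genes 13 were higher and 6 lower, with a median of 0.10. H2AC6 and H4C14 differed by 0.31 ± 0.08 and 0.31 ± 0.09, and histone genes have near-identical copies that probes may share.

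Growth factors and their binding proteins held some of the larger differences. Of 23 genes of the IGF and growth factor list 16 were higher and 7 lower at 72 h, with a median of 0.11, and 5 were higher and 1 lower at an unadjusted p under 0.05, against 4.82% and 3.47% of all genes. Under the scanner names the median of the list was 0.00. IGFBP5, a secreted protein that binds insulin-like growth factors, read 1088, 999, 1365 and 1199 units at 72 h, against 749, 781, 951 and 939 at 48 h (0.48 ± 0.09, limma adjusted p = 0.196), and a further IGFBP5 probe differed by 0.54 ± 0.11. MDK, the growth factor midkine, read 1225, 1138, 1009 and 1038 units at 72 h, against 815, 921, 844 and 676 at 48 h (0.48 ± 0.11, adjusted p = 0.287). Neither gene had a 72 h array inside the 48 h range, where 2.46% of all genes lay wholly above it. Both were picked from the list by p on the same arrays. PTN, the related factor pleiotrophin, read 463, 403, 336 and 323 units at 72 h, against 311, 357, 277 and 291 at 48 h (0.37 ± 0.10, adjusted p = 0.392), and here a GRHL1 array of 48 h stood above both empty vector arrays of 72 h. IGFBP4 differed by 0.35 ± 0.12 and IGFBP3 by 0.47 ± 0.14. Most of the IGFBP3 difference lay with the empty vector, at 0.83 against 0.12 with GRHL1, a split that did not pass the test between plasmids. Dimmer probes of MDK and IGFBP3 near the limit differed by -0.04 ± 0.26, 0.12 ± 0.22 and 0.02 ± 0.16. IGFBP2 differed by -0.21 ± 0.08 with 1638 ± 98.6 units at 72 h and 1887 ± 167 at 48 h (SD, n = 4 each). IGFBP5 and MDK had their lowest means at 24 h, with 679 and 654 units.

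**Figure D5:**
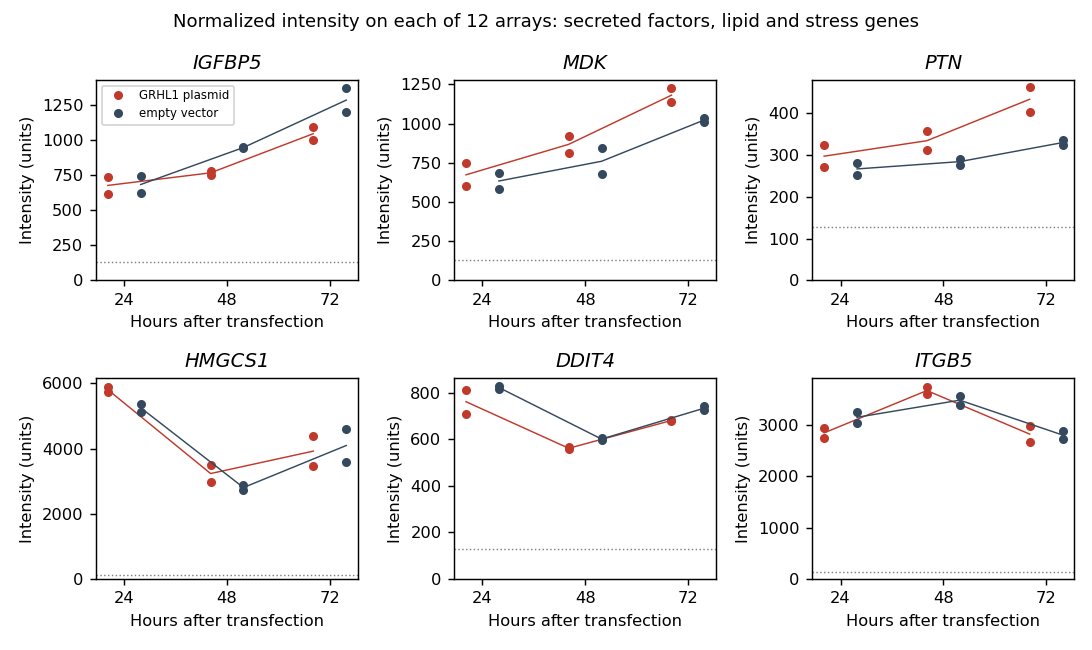
Normalized intensity (units, linear axis from 0) of 6 genes on each of the 12 arrays at 24, 48 and 72 h, with red points for the GRHL1 plasmid, dark blue points for the empty vector, lines through the means of 2 arrays and a dotted line at the detection limit of 128.4 units. IGFBP5, MDK and PTN have their highest levels at 72 h, HMGCS1 and DDIT4 have their low point at 48 h, and ITGB5 has its high point there.

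Extracellular matrix and adhesion genes went both ways. Of 30 genes 18 were higher and 12 lower at 72 h, with a median of 0.03, and 6 were higher and 2 lower at an unadjusted p under 0.05, against 4.82% and 3.47% of all genes. MGP, the matrix Gla protein that inhibits calcification, differed with plasmid and time, with 8531 and 7116 units at 72 h in GRHL1 cells, and 1860 and 1476 in empty vector cells, against 4837 and 4203 units at 48 h in GRHL1 cells, and 1008 and 1107 in empty vector cells. Within each plasmid the 72 h arrays lay above the 48 h arrays, by 0.80 with GRHL1 and 0.68 with empty vector, and over both plasmids by 0.74 ± 0.16 (limma adjusted p = 0.249). A further MGP probe differed by 0.78 ± 0.14, and under the scanner names MGP differed by 1.44. Those names place most arrays with a bright GRHL1 probe at 72 h, so the 1.44 mixes plasmid and time. LAMA4, a laminin chain, differed by -0.29 ± 0.09, at 215 ± 15.6 units at 72 h and 249 ± 20.3 at 48 h (SD, n = 4 each). DCN and LUM, small proteoglycans also used as fibroblast markers, differed by 0.37 ± 0.16 and 0.44 ± 0.15.

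The mesenchymal-type neuroblastoma list to which VIM belongs did not share its difference: 7 of 15 genes were higher and 8 lower at 72 h, with a median of -0.03. PDGFRB, a growth factor receptor of the same list, differed by -0.25 ± 0.08 (limma adjusted p = 0.457), with the opposite sign to VIM. Of 28 genes of the noradrenergic list 14 were higher and 14 lower, with a median of 0.01. TH, which makes the precursor of dopamine, read 764, 758, 912 and 788 units at 72 h, against 745, 665, 656 and 708 at 48 h (0.24 ± 0.10, limma adjusted p = 0.565), and a further TH probe differed by 0.28 ± 0.08. MAB21L2, a developmental gene of the same list, averaged 280 ± 11.7 units at 72 h and 230 ± 4.93 at 48 h (SD, n = 4 each), a difference of 0.39 ± 0.11. Neuronal differentiation and synapse genes were higher in 22 and lower in 14 of 36, with a median of 0.01.

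Markers were read for the cells that a culture could hold. All 10 neuroblastoma identity markers on the array lay above the limit on all 8 arrays, with summed levels of 73479 to 75915 units at 72 h and 72645 to 74189 at 48 h, so the label matched its markers. Of 12 fibroblast markers 6 lay above the limit on all 8 arrays and 4, COL3A1, PDGFRA, FAP and POSTN, below it on all 8, with sums of 6226 to 6962 units at 72 h and 5799 to 6660 at 48 h. Of 9 Schwann and glial markers 0 lay above the limit on all 8 arrays and 7, SOX10 and S100B among them, below it on all 8, with sums of 977 to 1058 units at 72 h and 974 to 1049 at 48 h. Of 11 leukocyte markers 3 lay above and 4 below the limit on all 8 arrays, and of 11 keratinocyte and carcinoma markers 2 above and 6 below. The ranges of the 2 times overlapped for each of the 5 lists, and of 7 fibroblast markers tested 0 were called, with LUM (0.44), DCN (0.37) and S100A4 (0.18) higher and PDGFRB (-0.25) lower at an unadjusted p under 0.05. The part of the fibroblast markers in the VIM and matrix values was not tested.

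The called genes kept the sign of their differences in every alternative under the normalized names that gave a value, but did not pass in each. A fit with an array left out also has fewer arrays from which to estimate the spread. In 23 alternatives under the normalized names SNORD13 kept its sign in 23 and passed in 16, with differences from 0.66 to 0.75 and adjusted p from 7.71e-07 to 0.312. TSPAN8 passed in 7 of 23, with differences from 0.73 to 1.01, and CA10 passed in 9 of the 22 that gave it a value, with differences from 0.37 to 0.72. Leaving out replicate 1 of 72 h GRHL1, replicate 1 of 72 h empty vector or either replicate of 48 h empty vector left 0 genes called, and without replicate 1 of 48 h GRHL1 only SNORD13 was called. Without both arrays whose time differs between the tables, an alternative chosen after seeing the data, 0 genes were called and 865 had an unadjusted p under 0.05. Under the scanner table's own names 0 genes were called, with 701 at an unadjusted p under 0.05. A permutation of the times within plasmid has 36 arrangements for a gene and cannot give an exact 2-sided p below 0.0556, the value each of the 3 genes reached. Genes far from the threshold reached it too, such as FOXO3 (limma adjusted p = 0.656), so it does not set the 3 apart.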

How the data were processed

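Total RNA of 12 samples was labelled with biotin and hybridised to Illumina BeadChips, per the labels. The authors deposited a scanner table and a normalized table of linear intensity values for 47323 probes, and the scanner table also gives a detection p-value beside each deposited intensity, per the file headers. The sources used here do not give the method of normalization. Array medians ran from 119.7 to 121.0 units in the normalized table. Each scanner column was linked to the normalized column it matched (rank correlation at least 0.999974, next best at most 0.8757), and a probe was detected at p under 0.01 with a signal above the array's background, since low p-values also marked 3416 to 4076 dim probes per array.

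The normalized intensities were background-corrected with normexp (offset 16) and put on the log2 scale, and the probe median filled 1 missing value. The platform annotation assigns a lone gene to 30113 probes, several to 8 and no gene to 17202. Probes naming 1 gene and detected on at least 2 of 12 arrays were kept (16501). Differences were tested with limma 3.58.1 in R 4.3.3 (a mean for each of 6 groups on all 12 arrays, moderated with 3.72 prior and 6 residual degrees of freedom). A fold against a group with no array above the limit is a lower bound on the intensity scale. The steps were tested on simulated data. Promoter counts and plots were made in Python with pandas and matplotlib.

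The comparison, the 35 gene lists (1000 entries, 936 on the array, 750 tested) and the motifs were chosen with earlier results of these data known. Genes were named by rule: GRHL1, MYCN and HDAC3, the largest called differences, and in each list the called genes or the 2 with the smallest p. Genes outside it were chosen after their values were seen. They are the further genes in order of p, those called in both of the alternatives that call most, and up to 5 members of the lists described. Alternatives covered the background step, offset, scaling, table and sample names, detection filter, probe choice, variance model, samples in the fit, pairing and left-out arrays.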

Additional observations from a re-analysis of the deposited data

How the results depend on the processing

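Over both plasmids 3 genes were called. The count was 36 without background subtraction, 42 with a variance trend and robust estimates, and 10 with an offset of 50. It was 1 with all probes kept, 1 in a fit of the 8 arrays on time plus plasmid, 0 in a fit of their 4 group means, 0 with no detection filter, 0 under the scanner table's own names and 0 without the 2 arrays whose time differs between the tables. Leaving out each array in turn gave 0 to 4. In GRHL1 cells, where 0 genes were called, the count was 5 without background subtraction and 11 with the variance trend. In empty vector cells, also with 0 called, it was 2 without background subtraction, 4 with the variance trend, 1 with an offset of 50 and 1 with genes detected on all 8 arrays. The difference between plasmids kept 0 under each alternative. The cause of these moves was not tested, beyond fewer arrays or more features tested.

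The design text calls the plasmids paired but does not say that replicate numbers mark the pairs, and deviations of same-numbered arrays of 1 time correlated at 0.114, 0.017 and 0.030 at 24, 48 and 72 h, so the numbers were not taken as pairs. With a fixed replicate block 1 gene was called, SNORD13, and with same-numbered arrays of 1 time as a random block 2 were, SNORD13 and CA10.

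Signs turned only for genes that were not called. Under the scanner table's own names the differences were -0.01 for MYCN, 0.08 for SYVN1, 0.03 for FOXO3, -0.03 for POLR3G, -0.01 for UQCRH, 0.18 for HSPB1, 0.07 for LAMP2, 0.00 for IGFBP5, 0.17 for PKP1, 0.02 for PHOX2A, 0.15 for FABP7, -0.05 for LUM, -0.13 for AIF1 and -0.03 for NOC2L. With each array left out in turn they ran from -0.05 to 0.04 for HDAC3, -0.05 to 0.00 for KRT10, -0.20 to 0.08 for FABP7, -0.14 to 0.30 for GRHL1 and -0.02 to 0.30 for MUC1, and without the 2 arrays of conflicting time 0.00 for HDAC3 and 0.05 for FABP7. Medians of the lists kept their sign over the 23 alternatives under the normalized names for cholesterol synthesis (0.10 to 0.18), ATF4 targets (0.04 to 0.08), MYC targets (0.05 to 0.10), hypoxia (0.04 to 0.09), the IGF list (0.02 to 0.12) and small noncoding RNAs (0.07 to 0.16), while that of G2/M genes ran from -0.01 to 0.03. Under the scanner names they were 0.10, 0.05, -0.01, 0.04, 0.00, 0.00 and -0.02 in the same order. Signal near the detection limit of 128.4 units limits what can be said of CA10, HAMP, CRYAA, NUPR1 and CDKN2B.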
